A study of Mus musculus with 4 samples.

Results

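Cells of the epidermis are held to each other by adherens junctions, desmosomes, tight junctions and gap junctions. The genes described here encode the proteins of these contacts: every measured gene named Cldn, Cdh, Dsg, Dsc, Pkp, Tjp, Nectin, Gja, Gjb or Gjc with a number (and at most a trailing letter), together with Dsp, Jup, Ocln, F11r, Marveld2 and Epcam. The rule found 75 of the 18193 genes on the arrays, measured by 139 probe sets (short probes for a transcript, summarised to 1 value). A gene with several probe sets is given by the brightest on average. By family these are 21 cadherins, 4 nectins, 6 desmosomal cadherins, 6 genes of the desmosomal plaque, 21 claudins, 5 other tight junction genes, 11 connexins and Epcam.

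The RNA came from mouse skin squamous cell carcinomas induced with chemicals, all labelled as malignant tumours, and was hybridised to whole-genome Affymetrix arrays, 1 array per sample. Tumour epithelial cells had been sorted alive as Epcam-positive and as negative for CD45, CD31 and CD140a, and were then divided by green fluorescence from a Sox2 reporter into Sox2-GFP+ (n = 2) and Sox2-GFP- cells (n = 2, the control). The cells came from 2 tumours of 2 mice; the labels do not state the strain, the age of the mice or the allele that carries the reporter. Because Epcam was the gate for both groups, its own level is no finding.

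Classical cadherins bind the same cadherin on the neighbouring cell and are tied to actin through catenins, with nectins as a second set of adhesion molecules at the same contact. Desmosomes use their own cadherins, desmogleins and desmocollins, which plakoglobin, plakophilins and desmoplakin link to keratin filaments. In epidermis desmoglein 1 and desmocollin 1 belong mainly to the upper, differentiating layers, while desmocollin 3 and P-cadherin are known from the basal layer. Claudins and occludin seal the space between cells of the granular layer, and connexins form channels that join the cytoplasm of neighbours.

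The RefSeq table of promoters (GRCm38.p6) held entries for 50 of the 75 genes, 68 start sites in all. The 250 bases before the start are shown for Cldn1 (chr16:26371840-26372089, minus strand) and Nectin4 (chr1:171369923-171370172, plus strand), which lay lower in Sox2-GFP+ cells with the widest separations among the genes in that table. Those of Cldn4 (chr5:134946935-134947184, minus strand), a claudin whose groups overlapped, stand beside them. Capitals mark the E-box CAGGTG, the motif that Snail and Zeb factors bind, searched on both strands; on the opposite strand it reads CACCTG.
Cldn1: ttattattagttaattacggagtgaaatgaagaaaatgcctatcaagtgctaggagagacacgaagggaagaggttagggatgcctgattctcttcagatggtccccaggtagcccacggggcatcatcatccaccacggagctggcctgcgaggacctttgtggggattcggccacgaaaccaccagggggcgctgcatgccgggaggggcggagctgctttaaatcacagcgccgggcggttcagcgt
Nectin4: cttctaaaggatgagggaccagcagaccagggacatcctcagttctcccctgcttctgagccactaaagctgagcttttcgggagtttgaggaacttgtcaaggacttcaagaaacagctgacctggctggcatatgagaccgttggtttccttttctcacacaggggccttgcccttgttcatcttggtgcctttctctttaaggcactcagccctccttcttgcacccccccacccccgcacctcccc
Cldn4: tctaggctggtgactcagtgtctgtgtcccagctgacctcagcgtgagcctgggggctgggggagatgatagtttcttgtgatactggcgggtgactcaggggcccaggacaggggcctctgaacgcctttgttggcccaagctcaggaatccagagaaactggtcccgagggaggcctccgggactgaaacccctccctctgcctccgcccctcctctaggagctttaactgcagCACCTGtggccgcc

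The Cldn4 window held 1 E-box, which begins 14 bases before the start, and those of Cldn1 and Nectin4 held none. Of all 32851 promoters listed there, 17.2% held CAGGTG on either strand in these 250 bases, against 16 of the 68 promoters of junction genes (23.5%). The Sox core CATTGT, also searched on both strands and not overlapping the E-box, was in 10.7% of all promoters and in 3 of the 68, and in none of the 3 windows shown. These are letter matches only.

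The 14 measured keratinocyte markers were above the lower quartile (4.19 to 4.25) of the arrays in every sample. Sox2 itself read 3.50 and 3.27 in the positive and 3.14 and 3.43 in the negative arrays, near the floor, and does not check the labels. The fibroblast and pericyte marker list did not read as absent: the log2 of its summed level was 14.21 and 12.14 in positive and 15.95 and 14.75 in negative arrays, although CD140a had been gated out. The column medians ran from 5.49 to 5.61, and the table holds no detection calls. With 2 arrays a group, their number limits the precision of every value below.

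No junction gene passed an adjusted p of 0.05 in limma with group as the only term (lowest adjusted p = 0.184), and neither did any of all genes tested (0% called in either direction). At an unadjusted p under 0.05 stood 2 junction genes higher (Cdh3 and Cldn8) and 8 lower in Sox2-GFP+ cells, where all genes gave 9.75% higher and 5.22% lower. Both positive arrays lay above both negative arrays in 16 junction genes (21.3%) and below in 18 (24.0%), beside 35.5% and 14.0% of all genes. By at least 1 log2 unit, 1 gene was separated above (Cldn8) and 4 below (Cldn1, Dsg1a, Dsc1 and Nectin4), against 0.665% and 1.36% of all genes. The median log2 difference, positive minus negative, was 0.04 over the junction genes and 0.14 over all genes. Scaled to the poly-A spike-ins (0.79 added to every difference), 53 junction genes lay above and 5 below, with 84.8% and 1.94% of all genes. With equal array medians these counts were 19 (25.3%) and 13 (17.3%), beside 43.6% and 10.8% of all genes. Directions below are those of the deposited scale; on the spike-in scale every difference between -0.79 and 0 turns positive, among them those of Dsp, Cldn15 and Marveld2, while Cldn1, Cdh11, Dsg1a, Dsc1, Nectin4 and Cdh1 stay lower.

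**Figure D1:**
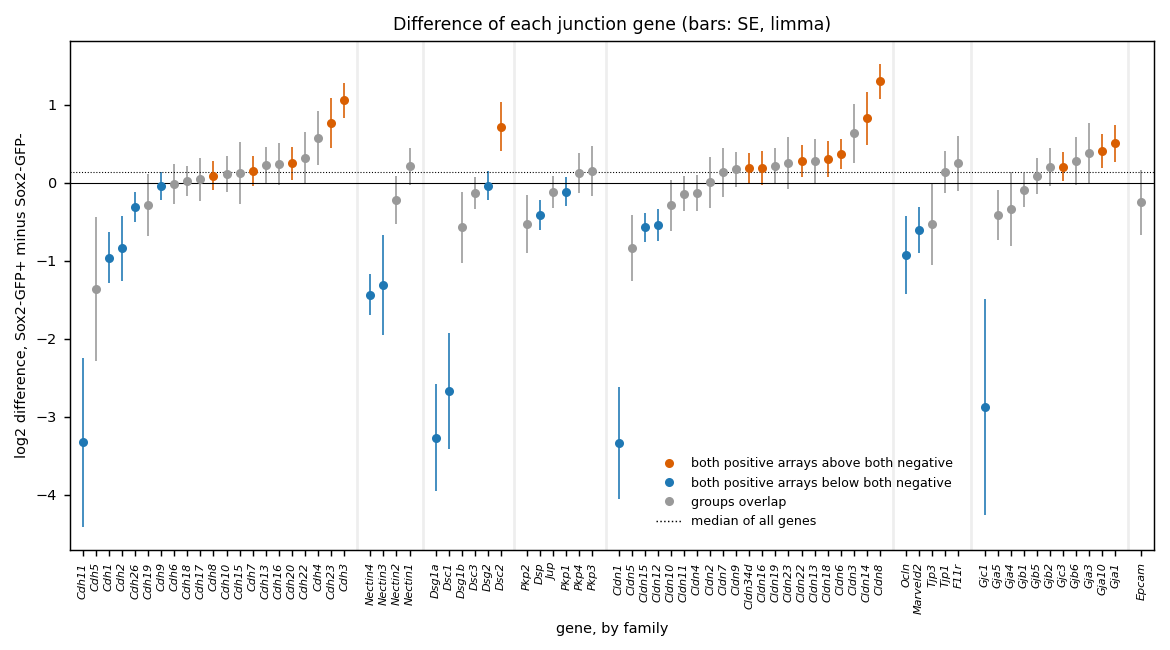
The vertical axis gives the log2 difference, Sox2-GFP+ minus Sox2-GFP-, of each of the 75 junction genes with its standard error from limma, grouped by family along the horizontal axis; colour shows whether the 2 arrays of each group overlap, and the dotted line is the median of all genes. Cldn1, Cdh11, Dsg1a, Gjc1 and Dsc1 lie below -2.5, and the highest gene, Cldn8, lies at 1.30.

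The largest difference at adherens junctions was in a mesenchymal cadherin, and the 2 classical cadherins of the epidermis lay in opposite directions. Cdh1, which encodes E-cadherin, the main cadherin of epithelia, was at 9.65 and 10.36 in positive (replicates 1 and 2) and 10.75 and 11.18 in negative arrays. The positive arrays were the lower ones, with a log2 difference of -0.96 ± 0.32 (SE, n = 2 per group, limma adjusted p = 0.293), a 1.95-fold lower level; without positive replicate 1 the difference was -0.61. Cdh3, which encodes P-cadherin, read 8.98 and 8.94 in positive and 8.12 and 7.69 in negative arrays. It was thus higher in both positive arrays, 2.07-fold (1.05 ± 0.23, SE, n = 2 per group, limma adjusted p = 0.210), and its second, dimmer probe set gave a difference of 0.86.

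Within each array, the log2 level of Cdh3 minus that of Cdh1 was -0.66 and -1.42 in positive and -2.62 and -3.49 in negative cells. Only the shift between groups, 2.01, can be read from this, since probe sets differ in brightness. The pair was chosen after its values were seen, so the shift is a description with no test. The catenins and other actin links that these cadherins use are given with the partner genes.

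Cdh11, the mesenchymal cadherin also called OB-cadherin, read 6.13 and 3.86 in positive and 9.55 and 7.09 in negative arrays. The groups did not overlap and differed by -3.33 ± 1.08 (SE, n = 2 per group, limma adjusted p = 0.283), 10.0-fold lower, with -1.74 in its other probe set. Between arrays with the same number it was -3.42 and -3.24, and it was -2.19 without positive replicate 2 and -2.10 without negative replicate 1. With the replicate number as a block, Cdh11 was the only junction gene called lower (limma adjusted p = 0.0262; all genes, 0.868% called lower and 0.0715% higher). That call was lost when the block was combined with quantile normalization over the chosen probe sets (0.0680) or with leaving out genes below the median level (0.0749), fits that called 0 of all genes. Its value in positive replicate 2 lay below the lower quartile of the arrays, so the size of the difference there is only a bound. In sorted bulk RNA, fewer cells of a type or layer and less RNA per cell cannot be told apart.

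Cdh5, the cadherin of endothelium, read 6.59 and 5.28 in positive and 8.55 and 6.04 in negative arrays, and the groups overlapped (-1.37 ± 0.92, SE). Cdh2, which encodes N-cadherin of neural and mesenchymal cells, read 3.87 and 3.52 against 5.09 and 3.98, so that negative replicate 1 alone stood clear of the lower quartile. For Cdh19, a cadherin of Schwann cell precursors, the values were 3.53 and 3.36 against 4.28 and 3.19. Cdh23, a cadherin best known from hair cells of the inner ear, read 5.62 and 4.90 against 4.72 and 4.27 and lay above (0.77 ± 0.32, SE, limma adjusted p = 0.362), by 0.41 without positive replicate 1. The other 14 cadherins differed by -0.31 to 0.57, 3 of them above, 2 below and 9 overlapping. Of the 21 cadherins, 6 were below the lower quartile in all 4 arrays. Over all 21, 23.8% lay above and 23.8% below, beside 35.5% and 14.0% of all genes.

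Of the 4 nectins, 2 lay below (50%) and 2 overlapped, where 14.0% of all genes lay below. Nectin4, an adhesion molecule of epithelia, read 6.96 and 6.37 in positive and 8.03 and 8.18 in negative arrays, 2.71-fold lower (-1.44 ± 0.27, SE, n = 2 per group, limma adjusted p = 0.187). Its groups were separated by more than 1 log2 unit, and the second probe set gave -1.95. Nectin3 read 5.27 and 4.49 against 7.08 and 5.32, with negative replicate 1 highest and negative replicate 2 close to positive replicate 1; its difference was -1.32, and -0.44 without negative replicate 1. Its 6 probe sets disagreed in sign, from -1.56 to 0.28. The probe set at -1.56 read 4.90 and 4.45 against 6.43 and 6.05, with both negative arrays above both positive arrays. Nectin1, known as a herpesvirus receptor of keratinocytes, overlapped at 9.98 and 10.17 against 9.64 and 10.09. Nectin2 differed by -0.22 with overlap, and by 0.49 in its other probe set.

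**Figure D2:**
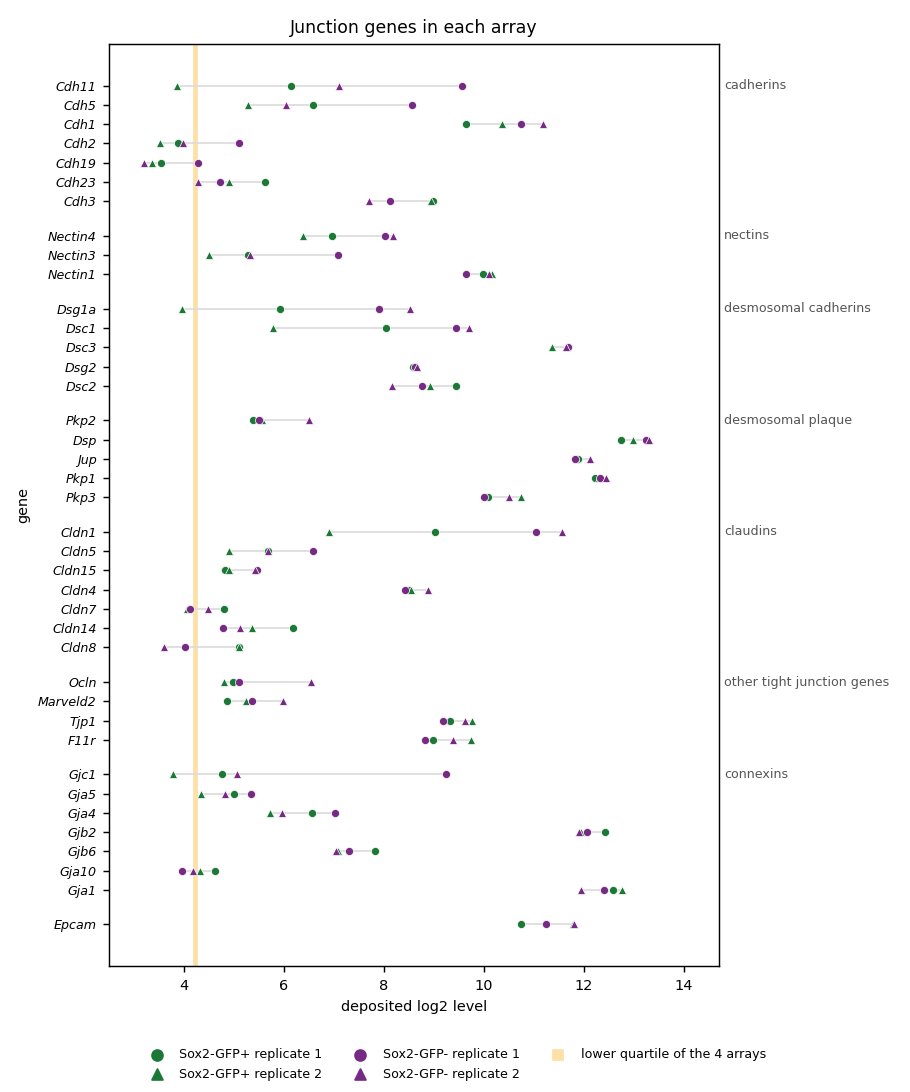
Each row is a named junction gene and the horizontal axis is the deposited log2 level; green marks are Sox2-GFP+ and purple marks Sox2-GFP- arrays, circles replicate 1 and triangles replicate 2, and the band is the range of the arrays' lower quartiles (4.19 to 4.25). Dsg1a, Dsc1, Cldn1 and Nectin4 have both green marks to the left of both purple marks by over 1 log2 unit, while the marks of Jup, Pkp1, Dsc3 and Gjb2 lie close together.

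Of the 6 desmosomal cadherins, 1 lay above (16.7%) and 3 below (50%), beside 35.5% and 14.0% of all genes. The largest differences were in genes of the upper layers. Dsg2, also counted as below, differed by only -0.04, with its groups 0.007 apart. Dsg1a, a desmoglein of the upper epidermis, read 5.92 and 3.95 in positive and 7.89 and 8.52 in negative arrays. This is a 9.65-fold lower level (-3.27 ± 0.68, SE, n = 2 per group, limma adjusted p = 0.208), with positive replicate 2 under the lower quartile of the arrays. Dsc1, its desmocollin counterpart, read 8.03 and 5.78 against 9.44 and 9.71, 6.36-fold lower (-2.67 ± 0.75, SE, limma adjusted p = 0.248), and its other probe set gave -3.06. In both genes positive replicate 2 was the lowest array, and without it the difference of Dsc1 was -1.54. Sebocyte markers, given with the other cell types, were lower in the same arrays, and their part in this was not tested.

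Dsg1b, a close copy of Dsg1a whose signal may not be separable from it, overlapped at 7.60 and 6.36 in positive and 7.35 and 7.75 in negative arrays. Dsc2, a desmocollin found in all layers, lay higher instead, with 9.44 and 8.91 against 8.76 and 8.15 (0.72 ± 0.31, SE, limma adjusted p = 0.373), with 0.74 in the other probe set; without negative replicate 2 the difference was 0.42. Dsc3, the desmocollin of basal cells, overlapped at 11.69 and 11.36 against 11.68 and 11.64. Dsg2, a widely made desmoglein, differed by -0.04 in the probe set used here, while its other 5 probe sets gave 0.21 to 0.56.

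The log2 level of Dsc2 minus that of Dsc1 was 1.40 and 3.13 in positive and -0.69 and -1.55 in negative arrays, a shift of 3.39. For Dsg2 minus Dsg1a the shift was 3.23. These pairs too were chosen after their values were seen. Krt1 and Krt10, keratins of the differentiating layers on the desmosome partner list, were lower beside them: Krt1 read 11.43 and 9.92 against 12.57 and 12.66, and Krt10 read 11.15 and 9.57 against 12.17 and 11.88. Positive replicate 2 was again the lowest.

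**Figure D3:**
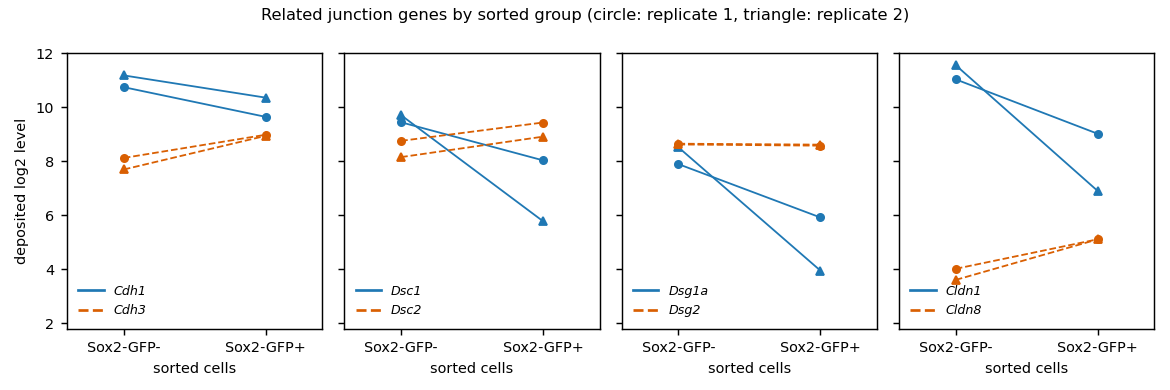
Each panel shows the deposited log2 levels (vertical axis) of a pair of related genes in Sox2-GFP- and Sox2-GFP+ cells, with lines joining arrays of the same replicate number; only slopes can be compared between genes. Cdh1, Dsc1, Dsg1a and Cldn1 (solid) slope down, Cdh3, Dsc2 and Cldn8 (dashed) slope up, and the Dsg2 lines, from the brightest probe set, are flat. All pairs shown, that of Cldn1 and Cldn8 included, were chosen after their values were seen.

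In the desmosomal plaque no gene was separated by 1 log2 unit. Of its 6 genes 0 lay above and 2 below (33.3%), beside 35.5% and 14.0% of all genes. Dsp, which encodes desmoplakin, the link to keratin, read 12.73 and 12.98 in positive and 13.25 and 13.30 in negative arrays (-0.42 ± 0.20, SE, limma adjusted p = 0.403), and all 3 of its probe sets were lower. Pkp1, the plakophilin of the upper layers, read 12.23 and 12.31 against 12.33 and 12.44. Jup, which encodes plakoglobin, overlapped at 11.88 and 11.83 against 11.83 and 12.13. Pkp3 overlapped at 10.08 and 10.73 against 10.01 and 10.51. Pkp2 read 5.38 and 5.55 against 5.50 and 6.50, with 3 dimmer probe sets of the opposite sign. Pkp4 differed by 0.12 with overlap, and by -0.22 in its other probe set. Epcam, the sorting marker, read 10.75 and 11.79 against 11.24 and 11.80.

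By at least 1 log2 unit, 1 claudin stood below (Cldn1) and 1, the dim Cldn8, above. Cldn1, the claudin that the epidermal barrier depends on, read 9.02 and 6.90 in positive and 11.03 and 11.56 in negative arrays. The groups were separated by more than 2 log2 units, for a 10.1-fold lower level (-3.34 ± 0.72, SE, n = 2 per group, limma adjusted p = 0.210). Between arrays of the same number the difference was -2.02 and -4.66. A second probe set gave -3.04, and the remaining 2 lay near the floor in all arrays.

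Cldn8, a claudin of kidney and other tight epithelia, read 5.11 and 5.10 in positive and 4.01 and 3.60 in negative arrays, 2.46-fold higher (1.30 ± 0.22, SE, n = 2 per group, limma adjusted p = 0.184). Both negative values lay below the lower quartile of the arrays, so this fold is only a bound. Cldn14 read 6.18 and 5.36 against 4.77 and 5.13 (0.82 ± 0.34, SE), also above, by 0.41 without positive replicate 1. Cldn15 read 4.81 and 4.91 against 5.46 and 5.41 and lay below (-0.58 ± 0.18, SE, limma adjusted p = 0.278).

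Cldn4, a claudin of stratified and simple epithelia, overlapped at 8.49 and 8.54 in positive and 8.42 and 8.87 in negative arrays. Cldn7 overlapped too, at 4.79 and 4.05 against 4.11 and 4.47. Cldn5, the claudin of endothelium, read 5.68 and 4.91 against 6.58 and 5.67. The other 14 claudins differed by -0.55 to 0.63, with 5 above, 1 below (Cldn12) and 8 overlapping. Of all 21 claudins 33.3% lay above and 14.3% below, near the 35.5% and 14.0% of all genes.

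The remaining tight junction genes were lower or overlapped. Ocln, which encodes occludin, read 4.98 and 4.79 in positive and 5.09 and 6.55 in negative arrays, so that most of its difference (-0.93 ± 0.50, SE, limma adjusted p = 0.450) lay in negative replicate 2, without which it was -0.20. Marveld2, which encodes tricellulin of the corners where 3 cells meet, read 4.87 and 5.23 against 5.35 and 5.98 (-0.61 ± 0.29, SE), with -0.30 left without negative replicate 2. Tjp1, the scaffold ZO-1, overlapped at 9.31 and 9.75 against 9.18 and 9.62, and F11r, the adhesion molecule JAM-A, at 8.97 and 9.73 against 8.82 and 9.39. Tjp3 differed by -0.54 with overlap.

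The connexins of keratinocytes, Gja1, Gjb2, Gjb5 and Gjb6, differed by 0.08 to 0.51. Gja1, which encodes connexin 43, read 12.59 and 12.76 in positive and 12.39 and 11.94 in negative arrays (0.51 ± 0.24, SE, n = 2 per group, limma adjusted p = 0.401). Both positive arrays were higher, and all 6 probe sets gave positive differences, from 0.07 to 0.80; without negative replicate 2 the difference was 0.28. Gjb2, the connexin mutated in many hereditary deafness and skin disorders, overlapped at 12.41 and 11.94 against 12.05 and 11.90, and Gjb6, its neighbour and partner, at 7.81 and 7.08 against 7.30 and 7.04. Gja10 read 4.61 and 4.32 against 3.95 and 4.17. The other 4 connexins differed by -0.10 to 0.38, with 1 above and 3 overlapping. Of all 11 connexins 27.3% lay above and 9.09% below, beside 35.5% and 14.0% of all genes.

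Gjc1, which encodes a connexin of smooth muscle and pericytes, read 4.75 and 3.78 in positive and 9.24 and 5.06 in negative arrays. Negative replicate 1 set the difference (-2.88 ± 1.38, SE, limma adjusted p = 0.408): without it the value was -0.79. Gja4 and Gja5, connexins of arterial endothelium, overlapped, at 6.57 and 5.72 against 7.02 and 5.95 and at 4.99 and 4.33 against 5.33 and 4.82.

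Cdh2, Cdh5, Cdh11, Cldn5, Gja4 and Gja5, known from mesenchyme or endothelium, were each highest in negative replicate 1. So were the marker lists of those cells. Gjc1 and Nectin3 were highest there too, but they were named for their differences in these data. Cdh11 was also named for its difference, beside being known from mesenchyme. Genes and lists were chosen with earlier results of these data known, so the shared pattern is a description with no test. Of 19 measured fibroblast and pericyte markers, 17 lay below in both positive arrays (89.5%) and none above, with a median difference of -2.69. Over all genes 14.0% lay below and 35.5% above. The list's mean level, relative to each gene's mean over the 4 arrays, was -0.27 and -2.15 in positive and 2.07 and 0.35 in negative arrays, and 1 marker, Dpt, was below the lower quartile, in positive replicate 2. Cdh11 on the same relative scale was lowest in positive replicate 2 and highest in negative replicate 1 too. Of 18 endothelial markers 4 lay below (22.2%) and 1 above (5.56%), Cd34, which hair follicle stem cells also make. The mean level of the endothelial markers was 0.00 and -0.64 against 0.98 and -0.34. Below the lower quartile were 1 and 3 of them in positive and 0 and 1 in negative arrays. The leukocyte list (18 genes) read 0.07 and -0.65 against 0.70 and -0.12, and the keratinocyte list (14 genes) 0.06 and 0.10 against -0.13 and -0.02. That last mean averages genes that went both ways. Of the 14, 7 lay above (50%), among them Lamb3 (1.54) and Itgb4 (1.22). Another 4 lay below (28.6%), among them Ly6d (-1.02) and Krt15 (-0.86). The part of these cells in the differences of Cdh11, Gjc1, Nectin3, Cdh2 and Cdh5 was not tested.

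Marker lists of other skin cells differed between the groups as well, beside 35.5% of all genes above and 14.0% below. Of 9 sebocyte markers 1 lay above (11.1%) and 7 below (77.8%), with a median of -1.77. Their mean levels were -0.44 and -1.34 in positive and 1.01 and 0.77 in negative arrays. Of 9 markers of Langerhans and antigen-presenting cells 0 lay above and 5 below (55.6%), with a median of -0.55. Their mean levels were -0.37 and -0.77 against 0.59 and 0.54. The 5 were Cd74, H2-Aa, H2-Ab1, H2-Eb1 and Cd86. Cd207 (-0.06), Ciita (0.05), Itgae (0.02) and Flt3 (0.00) overlapped. Of 11 melanocyte and Schwann cell markers 1 lay above (9.09%) and 6 below (54.5%), at -0.19 and -0.50 against 0.56 and 0.13. The means of these 3 lists were lower in both positive arrays, as were Cldn1, Dsg1a, Dsc1 and Nectin4. Of 9 muscle markers, by contrast, 6 lay above (66.7%) and 0 below (median 0.51), at 0.36 and 0.05 against -0.23 and -0.18. The part of any of these cells in the differences of the junction genes was not tested.

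**Figure D4:**
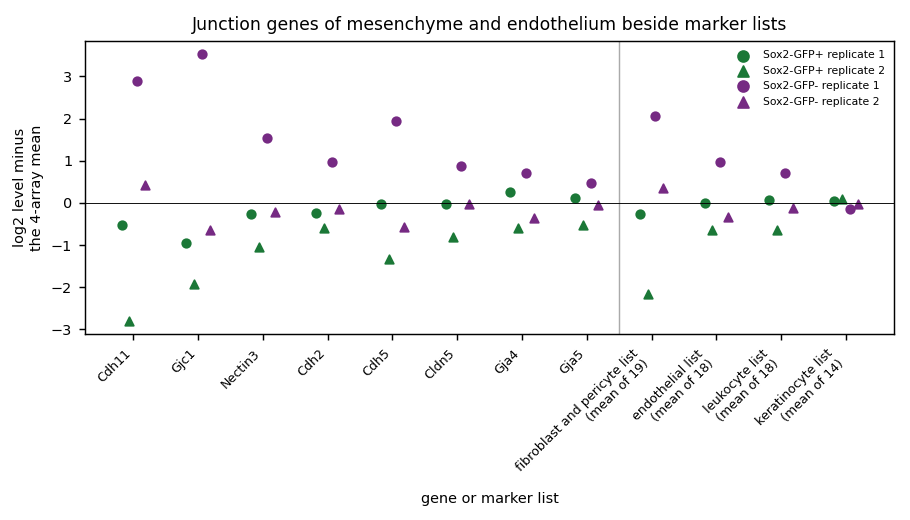
The vertical axis is the log2 level in each array minus the 4-array mean. Of the 8 junction genes left of the line, Gjc1 and Nectin3 were named for their differences in these data. The others are known from mesenchyme or endothelium, and of these Cdh11 was also named for its difference. The marker lists right of the line are means over their measured genes. Circles are replicate 1 and triangles replicate 2, green Sox2-GFP+ and purple Sox2-GFP-. Negative replicate 1 is the highest array for all 8 genes and for the fibroblast, endothelial and leukocyte lists, and the mean of the keratinocyte list, whose genes went both ways, stays within -0.13 to 0.10.

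Partners of these proteins were examined as lists, none of whose genes passed limma's adjusted p of 0.05 with group as the only term. Of 29 adherens junction partners 9 lay above (31%) and 6 below (20.7%), beside 35.5% and 14.0% of all genes. Their median difference was 0.00. Afdn, the actin-binding partner of nectins, read 7.94 and 8.23 in positive and 9.69 and 9.83 in negative arrays (-1.68 ± 0.21, SE, limma adjusted p = 0.172). Ajuba and Zyx, LIM proteins of the contact's actin cables, lay above, with differences of 1.10 and 1.03, and Lima1 with 0.59.

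Of 17 desmosome partners 3 lay above (17.6%) and 10 below (58.8%), beside 35.5% and 14.0% of all genes (median -0.21). Ppl, the cornified envelope protein periplakin, read 7.58 and 8.18 against 8.81 and 9.37. Vim, the mesenchymal filament vimentin, read 10.90 and 8.75 against 12.67 and 11.31 and was called lower with the replicate block (limma adjusted p = 0.0447), a call lost in the same 2 combined fits as that of Cdh11. Of 33 tight junction partners 5 lay above (15.2%) and 6 below (18.2%), with a median of -0.05. Clmp and Cxadr, adhesion molecules of the same immunoglobulin family, differed by -1.94 and -1.05, and the polarity genes Pard6a and Pard6g by 0.79 and 0.74.

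Of 14 gap junction partners 5 lay above (35.7%) and 2 below (14.3%), near the 35.5% and 14.0% of all genes (median -0.06). Ccn3, a matricellular protein that binds connexin 43, read 4.40 and 3.92 against 5.39 and 5.17, and Tubb5, Src and Cnst differed by 0.55, 0.63 and -0.73. Of 16 proteases and inhibitors that act on junction proteins 6 lay above (37.5%) and 4 below (25%), with a median of 0.07. The desmosome-cleaving kallikreins Klk7, Klk5 and Klk6 differed by -4.24, -2.34 and -2.25, while Klk8, a kallikrein on the same list, differed by 0.48 with overlap. Klk7 was called lower with the replicate block (limma adjusted p = 0.0262), a call lost in those 2 combined fits too. The stromelysin Mmp3 differed by 1.06.

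Of 21 transcription regulators of junction genes 3 lay above (14.3%) and 7 below (33.3%), beside 35.5% and 14.0% of all genes (median -0.09). Snai2, a repressor of Cdh1, read 10.26 and 10.71 in positive and 9.89 and 9.05 in negative arrays (1.01 ± 0.36, SE, limma adjusted p = 0.306). Zeb2, another such repressor, read 5.21 and 4.14 against 8.96 and 5.87, with the same high negative replicate 1 as the fibroblast markers. Grhl1, an activator of desmosomal cadherins, read 8.80 and 8.10 against 9.32 and 9.70, and Ovol2, a guardian of the epithelial state, 5.12 and 5.25 against 4.23 and 4.80.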

How the data were processed

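The authors deposited 1 table of log2 values for 45101 probe sets on 4 arrays, the scale being read from the values; the submitters' processing notes name R 2.14.0, and no source used here states the background correction, normalization or summary. The 64 control probe sets were left out, and 34945 probe sets with 1 symbol in the platform annotation were named (932 had several). All 75 junction genes matched the RefSeq gene table by gene number; 3 symbols of the claudin 34 cluster with a second number were outside the rule. Differences, positive minus negative, were tested with limma 3.58.1 in R 4.3.3 over all 18193 genes, group as the only term (2 residual and 2.92 prior degrees of freedom), with Benjamini-Hochberg adjustment; the fit was tested on simulated data.

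Replicate numbers were read as pairing arrays by tumour from the series text, which the labels do not state; differences between replicates 1 and 2 in both groups correlated with r = 0.156 over all genes and 0.364 over the 75 junction genes, which leaves the pairing undecided. Members, lists and tests were chosen with earlier results of these data known. Genes were named in full if past the threshold with or without the block, separated by 1 log2 unit, among the 2 largest non-overlapping differences per direction of their family, or known from epidermis or other cell types; from partner lists, up to 4 with the smallest p. Dpt, Cd34, Klk8 and members named beside a count or a range were chosen after their values were seen. Of the genes known from epidermis, 2 were not analysed here. Alternatives were other scalings, probe set choices, priors, thresholds, filters, the replicate block and leaving out each array.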

Additional observations from a re-analysis of the deposited data

How the results depend on the processing

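With the replicate block, limma called 1 junction gene and 171 of all genes, and combined with quantile normalization over all probe sets 1 and 183; combined with quantile normalization over the chosen probe sets or without genes below the median level, both chosen after seeing the data, it called 0 and 0. The block changed no other call of a named junction gene. A trended prior called 19 of all genes. Scaled to the poly-A spike-ins, 49 junction genes and 12717 of all genes were called. By 1 log2 unit 5 junction genes were separated above and 2 below, while 53 lay above and 5 below, and the median was 0.83. Each array was shifted by its own spike-in level. The shift added 0.79 to every difference and also changed the spread within groups, on which calls and overlaps depend. Without genes below the median level, which tests 30 junction genes, 0 were separated above, 3 lay above (10.0%) and 10 below (33.3%), beside 39.8% and 16.8% of all genes left. With every probe set on its own (139), 8 were separated below, 44 lay above (31.7%) and 31 below (22.3%), beside 32.3% and 16.5% of all probe sets. Of 37 junction genes with several probe sets, 10 had probe sets whose differences disagreed in sign.

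Leaving out each array, the number separated by 1 log2 unit ran from 1 to 2 above and 5 to 9 below, those above from 23 to 32 and those below from 22 to 32, with 46.5% to 55.2% and 23.4% to 28.0% of all genes, since 1 against 2 arrays overlap less often; the lone array is assumed to vary like the others, and 0 genes were called. Without the array in turn, differences ran from -0.84 to 0.26 for Cdh19, -0.36 to 0.092 for Cldn4, -0.24 to 0.50 for Cldn7, -0.30 to 0.029 for Dsc3, -0.78 to 0.26 for Epcam, -0.14 to 0.63 for F11r, -0.87 to 0.19 for Gja4, -0.034 to 0.43 for Gjb2, -0.086 to 0.64 for Gjb6, -0.27 to 0.024 for Jup, -0.018 to 0.43 for Nectin1, -0.17 to 0.48 for Pkp3 and -0.089 to 0.35 for Tjp1.

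Under spike-in scaling the sign turned for Cdh19 (0.50), Cldn15 (0.22), Cldn4 (0.66), Dsc3 (0.66), Dsg2 (0.75), Dsp (0.37), Epcam (0.54), Gja4 (0.45), Gja5 (0.38), Jup (0.67), Marveld2 (0.18), Pkp1 (0.67) and Pkp2 (0.26). It also turned for Dsg2 with equal medians (0.042), and for Dsg2 (0.34) and Pkp2 (0.20) with the mean of all probe sets. The cause was not tested for these, beyond the constant added. With 2 arrays a group and no detection calls, differences of genes near the lower quartile are bounds.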

Other observations

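Junction genes often sit beside each other on the chromosome. By the RefSeq gene table (GRCm38.p6), 16 pairs of the measured members, from 27 genes, had no other protein-coding gene between them, and in 8 of the 16 pairs both differences had the same sign. Cdh3 and Cdh1 are such neighbours, with differences of 1.05 and -0.96, and so are Dsc2 and Dsc1, with 0.72 and -2.67, and Cldn1 and Cldn16, a claudin of the kidney, with -3.34 and 0.19. Ocln and Marveld2, neighbours whose proteins share a membrane domain, both lay below (-0.93 and -0.61). Gja3, Gjb2 and Gjb6 stand in a row and differed by 0.38, 0.20 and 0.28, all with overlap.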
